A study of Mus musculus with 8 samples.

Results

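The brown fat thermogenic genes are Ucp1, Cidea, Dio2, Ppargc1a, Cox7a1 and Cox8b, 6 of the 55418 genes listed in each library of a mouse skin series, and they were found by their symbols in the deposited files. Brown adipocytes burn fatty acids to make heat. Ucp1 lets protons leak across the inner mitochondrial membrane, so that respiration releases heat instead of driving ATP synthesis, and newborn mice depend on brown fat between the shoulder blades to stay warm. The other members are less restricted: Cidea, a lipid droplet protein, is also made by sebaceous glands, and Cox7a1 and Cox8b, subunit isoforms of cytochrome c oxidase, are also made by skeletal muscle, a thin sheet of which lies under mouse skin. Skin RNA was sequenced from mice with a spontaneous mutation, called hairloss in the labels, and from wildtype mice, each at postnatal days 0, 16, 19 and 28. There were 8 libraries, 1 for each genotype and day, so a difference at 1 day has no replicate error and describes those libraries. The labels used here do not give the mutated gene, strain, sex, body site or number of animals behind a library, or say whether the fat and muscle under the skin were removed.

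Levels are given as FPKM, fragments relative to transcript length and sequencing depth, a unit inferred from the values. Depth, estimated from the value of 1 fragment, was 31800000 to 45600000 fragments a library. The skin label fitted its markers: all 5 keratinocyte markers stood above 0 in every library. Sex markers differed at day 0: Ddx3y, a Y-linked gene, was listed at 0 in the hairloss library and at 16.3 FPKM in the wildtype library, and Xist, made by the inactive X, stood at 76.1 and 51.3 FPKM. At day 28 Ddx3y was again listed at 0 in the hairloss library, against 16.5 FPKM in wildtype, and Xist stood at 50.2 and 0.166 FPKM. At day 19 Ddx3y stood at 19.4 FPKM in hairloss and 15.8 FPKM in wildtype, but Xist at 0.115 and 12.4 FPKM. At days 0, 19 and 28 genotype and the sex of the mice used cannot be told apart.

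The 250 bases before the start of 4 members are shown because these genes go different ways in the data. Ucp1 is shown for its change with age and Dio2 as the member with a cAMP response element. Cox7a1 and Cox8b are shown as the pair with the most similar pattern of levels over the libraries. The sequences are from RefSeq on GRCm38.p6, which is the mm10 build, 5′ to 3′ on the strand of the gene, and capitals mark motif matches. RefSeq entries matched 5 members. Starts are those of RefSeq, which for Ucp1, Dio2 and Cox7a1 differ from the GENCODE gene coordinates given further on. The Dio2 window lies beyond the end of the GENCODE gene without touching it, and the Cox7a1 window overlaps the GENCODE start. The Cox8b window borders the GENCODE start directly. Ucp1 is at chr8:83290098-83290347 on the plus strand, Dio2 at chr12:90739039-90739288 on the minus strand, Cox7a1 at chr7:30183921-30184170 on the plus strand and Cox8b at chr7:140900447-140900696 on the minus strand.
Ucp1: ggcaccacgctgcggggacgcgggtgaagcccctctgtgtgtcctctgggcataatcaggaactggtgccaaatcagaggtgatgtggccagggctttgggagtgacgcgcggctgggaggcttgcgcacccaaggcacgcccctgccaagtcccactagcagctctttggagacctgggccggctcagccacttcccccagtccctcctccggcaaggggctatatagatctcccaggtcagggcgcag
Dio2: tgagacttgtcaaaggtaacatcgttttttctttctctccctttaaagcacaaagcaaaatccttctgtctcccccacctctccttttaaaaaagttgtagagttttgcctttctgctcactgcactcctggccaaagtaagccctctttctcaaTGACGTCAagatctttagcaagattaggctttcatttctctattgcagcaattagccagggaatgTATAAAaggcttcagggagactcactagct
Cox7a1: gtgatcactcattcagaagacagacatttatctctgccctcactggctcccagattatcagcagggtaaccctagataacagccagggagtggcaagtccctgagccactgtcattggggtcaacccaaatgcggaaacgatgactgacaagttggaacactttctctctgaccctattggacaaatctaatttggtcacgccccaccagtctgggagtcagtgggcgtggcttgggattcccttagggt
Cox8b: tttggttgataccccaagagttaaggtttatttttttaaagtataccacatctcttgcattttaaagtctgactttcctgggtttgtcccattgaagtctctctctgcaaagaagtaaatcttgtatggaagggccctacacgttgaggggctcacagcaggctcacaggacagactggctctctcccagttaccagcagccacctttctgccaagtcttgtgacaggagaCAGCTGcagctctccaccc

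The motifs were searched on both strands. The Dio2 window held the cAMP response element TGACGTCA, the sequence bound by CREB-type factors, at 95 to 88 bases before the start, which 1.55% of 32851 promoters of the same length hold. It also held a TATA box, TATAAA, at 30 to 25 bases before the start, present in 12.4% of promoters. The Cox8b window held the E-box CAGCTG, the form bound by muscle factors of the MyoD type, at 19 to 14 bases before the start, present in 13.0% of promoters. The ERR element TCAAGGTCA (0.387% of promoters), the shorter AAGGTCA inside it (4.08%), the direct repeat of the PPAR element, AGGTCA on both sides of any 1 base (0.0335%), and the consensus NRF1 site (0.782%) had no match in the 5 windows, and neither Ucp1, Ppargc1a nor Cox7a1 held any of the 7 motifs. A match is a description of letters, and no match says only that these letters are not in this window.

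In newborn skin all 6 members had lower values in the hairloss library, Ucp1 by far the most. Only Ucp1 and Cidea were lower by 2-fold or more on the log2(FPKM + 1) scale. The median difference over all compared genes was -0.01. The share of all genes that were lower was not counted, so the direction of the 6 does not set them apart. Ucp1 (chromosome 8, 83290352 to 83298452, build mm10, GENCODE M21) stood at 3.25 FPKM in hairloss skin and at 100.7 FPKM in wildtype skin. The wildtype level was 31.0 times the hairloss level. In bulk skin, fewer cells of a type and less RNA per cell cannot be told apart. These values correspond to about 194 fragments in the hairloss library and 6029 in the wildtype library at the implied depths, and counting error is small beside the difference. Among protein-coding genes, Ucp1 exceeded 51.1% in the hairloss library and 97.8% in the wildtype library.

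**Figure D1:**
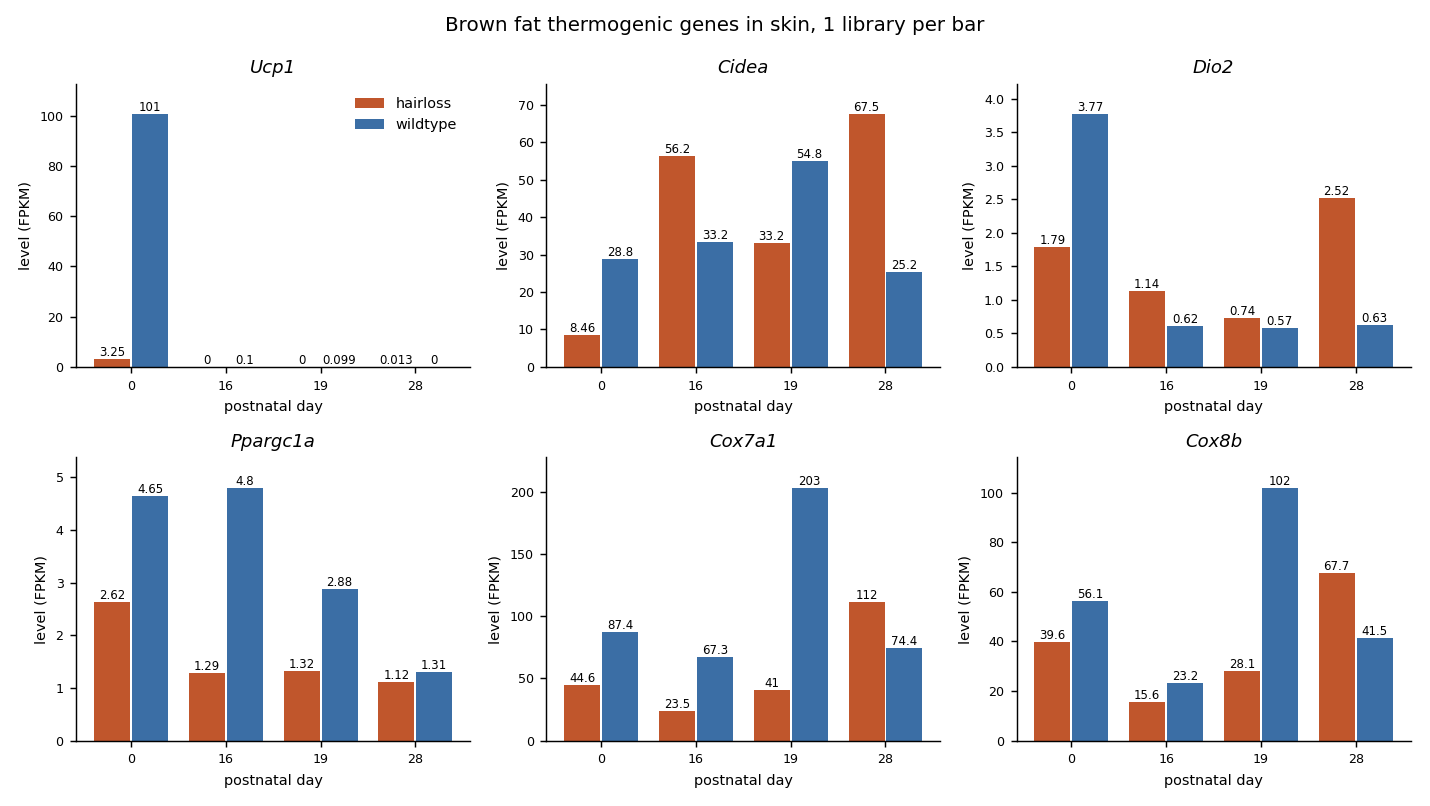
Levels in FPKM (linear axes, from 0) of the 6 members by postnatal day, with hairloss bars left of wildtype bars and 1 library per bar. Ucp1 reached 100.7 FPKM in wildtype skin of day 0 and lay under 0.2 FPKM in all libraries after day 0, while Cidea, Cox7a1 and Cox8b stayed above 8 FPKM in every library.

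After day 0 Ucp1 was close to undetected in both genotypes. It was listed at 0, 0 and 0.0131 FPKM in hairloss skin (days 16, 19 and 28), and at 0.103, 0.0989 and 0 FPKM in wildtype skin. The value above 0 in hairloss skin corresponds to about 1 fragment, and those in wildtype skin to about 5.4 and 6.3 fragments, while 3 fragments of this transcript would read 0.0402 to 0.0577 FPKM in the libraries after day 0. The order of levels was therefore wildtype day 0, then hairloss day 0, then the other 6 libraries, whose differences lie near the limit of detection. In limma across the 8 libraries, with genotype as a block, Ucp1 differed by -4.33 ± 1.07 (SE) between the mean of days 16, 19 and 28 and day 0 on the log2(FPKM + 1) scale, with limma adjusted p = 0.0684. It did not pass the threshold of 0.05, although 11.8% of the 18724 genes tested did. With a pseudocount of 0.1 the difference was -7.16 and passed (limma adjusted p = 0.0235), and it also passed with protein-coding genes alone (0.0461), without the hairloss library of day 0 (0.0131), and with day 0 set against all later days as 2 levels (0.0249). Without the wildtype library of day 0 it was -2.08 and did not pass (0.102). Over its 16 alternatives the adjusted p ran between 0.0131 and 0.141.

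Cidea (chromosome 18, 67343604 to 67367785) kept a high level after Ucp1 was gone. It stood at 8.46, 56.2, 33.2 and 67.5 FPKM in hairloss skin (days 0, 16, 19 and 28), and at 28.8, 33.2, 54.8 and 25.2 FPKM in wildtype skin. The lowest of the 8 libraries was hairloss day 0 and the highest hairloss day 28, and which genotype was higher alternated with day. At day 0 the wildtype level was 3.40 times the hairloss level, and at day 28 the hairloss level was 2.67 times the wildtype level. The mean of the later days was above day 0 by 1.37 ± 0.64 (SE), short of the threshold (limma adjusted p = 0.20). It was 0.31 without the hairloss library of day 0 and 2.43 without the wildtype library of day 0.

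The sebaceous gland genes, which include the wax and lipid enzymes Awat2, Far2 and Elovl3, rose with age. Of 12 genes, 7 were higher and 0 lower in the mean of days 16, 19 and 28 than at day 0 (limma adjusted p under 0.05), and the median over the list was 2.70 on the log2(FPKM + 1) scale, against -0.05 over all genes, of which 5.11% were called higher and 6.72% lower. All 7 kept their sign with any 1 library left out, but 1 of them (Elovl3) still passed without the wildtype library of day 0, 0 without the hairloss library of day 0 or without either library of day 16, and 5 or 6 without one of day 19 or 28. The summed level of the 6 defining sebaceous markers was 10.2 FPKM in hairloss skin of day 0 and 12.4 FPKM in wildtype skin, and 96.8 to 279 FPKM in the libraries after day 0. Over the 8 libraries Cidea had a Pearson correlation of 0.78 (Spearman 0.76) with the mean of the sebaceous list. At day 0, 0 of 9 compared genes of the sebaceous list differed by 2-fold between the genotypes. Over all 16685 genes compared at that day 1.58% were lower and 1.49% higher, so this count does not set the list apart. Far2 was lower in hairloss skin, at 3.24 FPKM against 5.95 FPKM in wildtype skin. Scd1 (276 and 178 FPKM) and Scd3 (2.40 and 1.38 FPKM) were higher in hairloss skin. The median over the compared sebaceous genes was 0.005, and the summed level of all 12 was 430 FPKM in hairloss skin and 320 FPKM in wildtype skin. The part of gland content in the level of Cidea was not tested. Among the CIDE family, Cidec, the form of white fat, stood at 51.3 FPKM in hairloss skin and 48.1 FPKM in wildtype skin at day 0, and Cideb, the liver form, at no more than 0.1 FPKM in any library.

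Dio2 (chromosome 12, 90724552 to 90738438), the type II deiodinase that turns thyroxine into the active thyroid hormone inside brown fat, was low throughout. It stood at 1.79, 1.14, 0.735 and 2.52 FPKM in hairloss skin (days 0, 16, 19 and 28), and at 3.77, 0.616, 0.573 and 0.627 FPKM in wildtype skin. The wildtype library of day 0 was highest and the hairloss library of day 28 came next. The wildtype level was 2.11 times the hairloss level at day 0, and the hairloss level 4.02 times the wildtype level at day 28. Between the mean of the later days and day 0 the difference was -0.91 ± 0.36 (SE; limma adjusted p = 0.147). It was -1.57 without the hairloss library of day 0 and -0.24 without the wildtype library of day 0. Its relatives did not share the pattern: Dio3, which inactivates thyroid hormone, stood at 0.142, 3.59, 1.196 and 0 FPKM in hairloss skin and at 0.0653, 11.3, 0.0762 and 1.89 FPKM in wildtype skin, and Dio1 did not exceed 0.11 FPKM.

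Ppargc1a (chromosome 5, 51454250 to 51567726), a coactivator that turns on mitochondrial genes in brown fat and muscle, stood lower in the hairloss library at all 4 days. Its level was 2.62, 1.29, 1.32 and 1.12 FPKM in hairloss skin and 4.65, 4.802, 2.88 and 1.31 FPKM in wildtype skin. The difference was widest at day 16, where the wildtype level was 3.72 times the hairloss level, and smallest at day 28. Over the 4 days, with day as a block, the genotype difference was -0.71 ± 0.22 (moderated limma SE, from 4 pairs of libraries) on the log2(FPKM + 1) scale, with an unadjusted limma p of 0.0212 and an adjusted p of 0.343, so it did not pass. Of its relatives, Ppargc1b was higher in the hairloss library at all 4 days. It stood at 4.67, 2.64, 3.38 and 2.39 FPKM in hairloss skin and at 3.91, 1.10, 2.30 and 1.16 FPKM in wildtype skin. Pprc1 was lower in hairloss skin at days 0, 16 and 28 and higher at day 19. It stood at 10.3, 8.01, 12.01 and 10.3 FPKM in hairloss skin and at 14.6, 11.6, 8.64 and 11.6 FPKM in wildtype skin. Ppargc1b fell after day 0, with a difference of -0.79 ± 0.18 (SE; limma adjusted p = 0.0489), a call lost with any 1 of the 8 libraries left out.

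**Figure D2:**
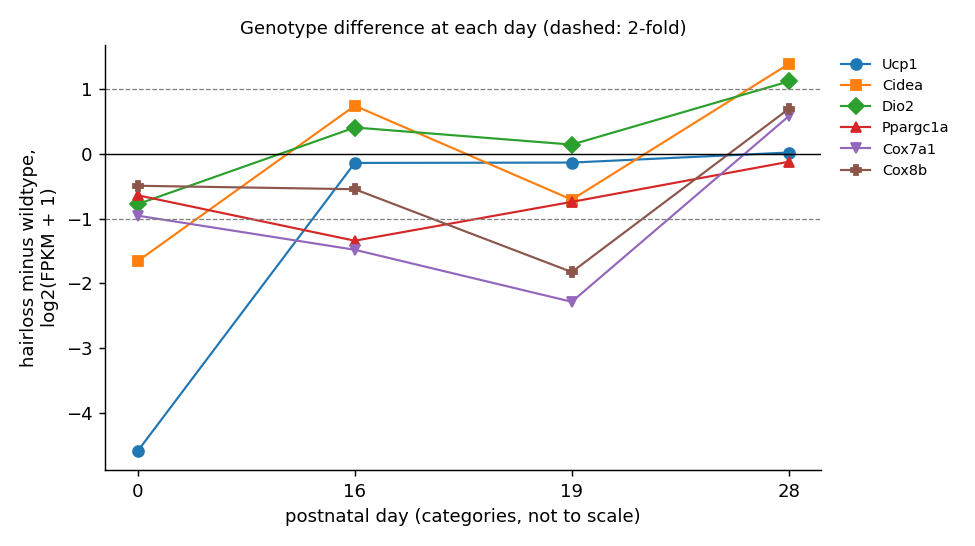
Hairloss minus wildtype difference of each member on the log2(FPKM + 1) scale at each day, with dashed lines at 2-fold and no error because each point is 1 library of each genotype. Ucp1 lies at -4.58 at day 0 and near 0 afterwards, where both libraries are near 0, while Cox7a1 and Cox8b reach -2.28 and -1.82 at day 19.

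Cox7a1 (chromosome 7, 30184144 to 30186078) and Cox8b (chromosome 7, 140898945 to 140900446) had the most alike pattern of levels over the libraries of any pair of members. Cox7a1 stood at 44.6, 23.5, 41.0 and 112 FPKM in hairloss skin (days 0, 16, 19 and 28), and at 87.4, 67.3, 203 and 74.4 FPKM in wildtype skin. Cox8b stood at 39.6, 15.6, 28.1 and 67.7 FPKM in hairloss skin, and at 56.1, 23.2, 102 and 41.5 FPKM in wildtype skin. Both were highest in the wildtype library of day 19, next highest in the hairloss library of day 28 and lowest in the hairloss library of day 16. Over the 8 libraries their Pearson correlation was 0.91 (Spearman 0.93), against -0.34 to 0.77 for the other 14 pairs of members. Their transcripts are short, at most 485 and 360 bases, and FPKM is least stable for short transcripts.

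Hairloss skin had less of both than wildtype skin at days 0, 16 and 19 and more at day 28. The wildtype level of Cox7a1 was 1.96, 2.87 and 4.96 times the hairloss level at days 0, 16 and 19, and the hairloss level was 1.501 times the wildtype level at day 28. For Cox8b the wildtype level was 1.42, 1.49 and 3.63 times the hairloss level, and then the hairloss level 1.63 times the wildtype level. Neither passed the test over the 4 days: Cox7a1 differed by -1.03 ± 0.47 (SE; limma adjusted p = 0.407) and Cox8b by -0.54 ± 0.40 (limma adjusted p = 0.554). Without day 19 these values were -0.62 and -0.12, and without day 28 they were -1.57 and -0.95.

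Adult skeletal muscle genes were, like the oxidase subunits, lower in the hairloss library at days 16 and 19 and higher at day 28, but not lower at day 0. The summed level of the 8 defining muscle markers was 723, 2834 and 6621 FPKM in the hairloss libraries of days 16, 19 and 28, and 1531, 5867 and 3001 FPKM in wildtype skin. At day 0 it was 7841 FPKM in hairloss skin and 6383 FPKM in wildtype skin, the hairloss library being the higher, whereas Cox7a1 and Cox8b were lower there. Cox7a1 and Cox8b had Pearson correlations of 0.79 and 0.88 (Spearman 0.57 and 0.74) with the mean of the 21 adult muscle genes over the 8 libraries, and of 0.80 and 0.83 (Spearman 0.81 and 0.79) with the mean of 20 pan and white adipocyte genes. Muscle and fat genes moved together at days 19 and 28. In the hairloss library of day 19, 13 of 21 muscle genes and 10 of 20 adipocyte genes were lower by 2-fold or more. In that of day 28, 18 and 7 of them were higher by as much. Over all compared genes 5.76% were lower at day 19 and 5.6% higher at day 28. The part of muscle or fat content in the levels of Cox7a1 and Cox8b was not tested.

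**Figure D3:**
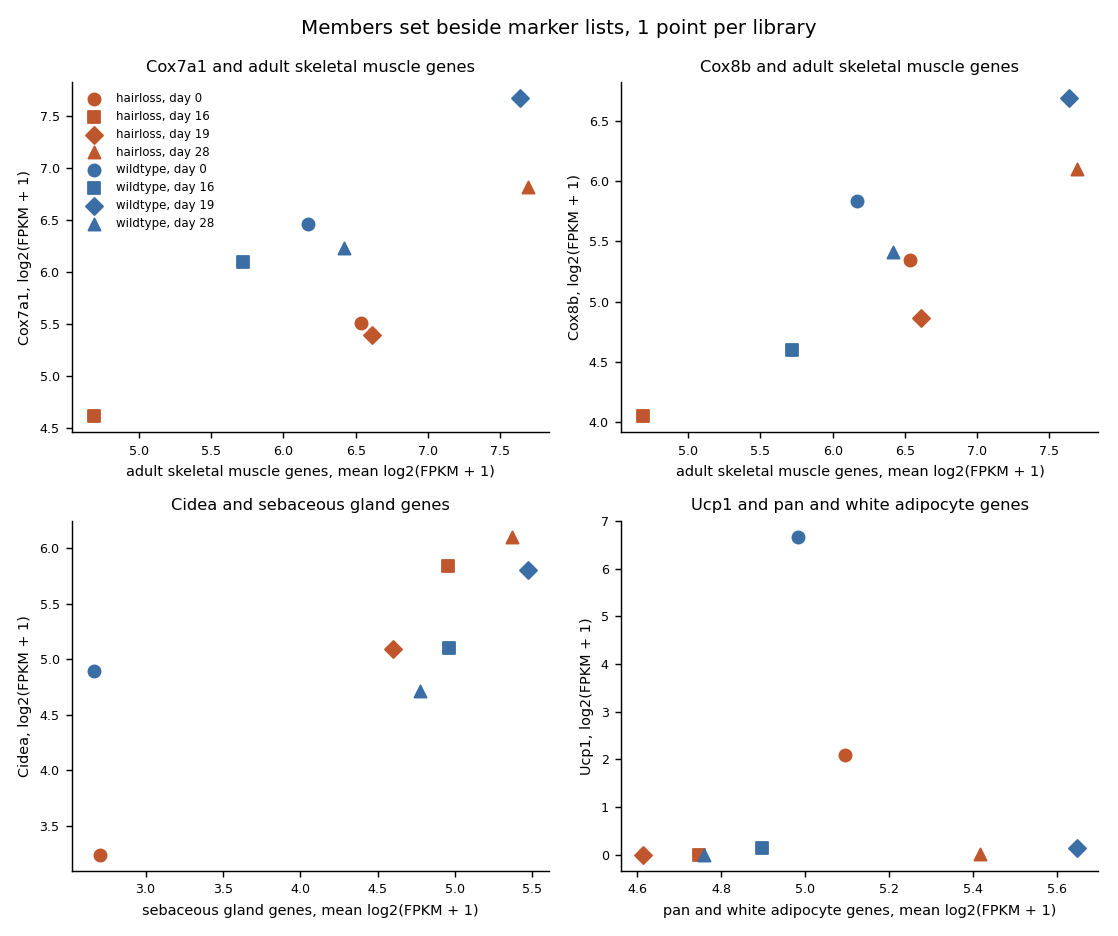
Each point is 1 library (orange hairloss, blue wildtype, shape by day), with a member's log2(FPKM + 1) against the mean log2(FPKM + 1) of a marker list. Cox7a1 and Cox8b go up with adult muscle genes (Pearson 0.79 and 0.88) and Cidea with sebaceous gland genes (0.78), while Ucp1 is high at day 0 alone, with a Pearson correlation of 0.00 and a Spearman correlation of 0.59 with pan and white adipocyte genes. For lists not drawn with Ucp1, its Pearson correlations were 0.79 (Spearman 0.88) for perinatal and slow muscle, -0.83 (-0.29) for sebaceous gland, -0.09 for adult muscle and -0.11 for keratinocyte genes.

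Against their general counterparts, which all tissues use, the tissue-restricted isoforms took a changing share. Cox7a1 made up 20.02%, 9.65%, 19.9% and 34.4% of the summed FPKM of Cox7a1 and Cox7a2 in hairloss skin at days 0, 16, 19 and 28, and 30.0%, 17.2%, 48.2% and 20.3% in wildtype skin. Cox8b made up 14.95%, 4.49%, 10.0025% and 28.1% of Cox8b and Cox8a in hairloss skin, and 12.9%, 4.68%, 21.65% and 8.20% in wildtype skin. At day 0 the share of Cox7a1 was lower and that of Cox8b slightly higher in the hairloss library, where Cox8a stood at 225 FPKM, against 380 FPKM in wildtype skin. At day 28 Cox8a stood at 173 FPKM in hairloss skin and 465 FPKM in wildtype skin, so the higher share of Cox8b there reflects lower Cox8a as well as higher Cox8b. Cox7a2 ranged from 165 to 220 FPKM in hairloss skin and from 204 to 324 FPKM in wildtype skin. Cox7a2l, a related supercomplex factor, stood at 127 FPKM in hairloss skin and 139 FPKM in wildtype skin at day 0, and Cox8c was listed at 0 in all 8 libraries. Of the 11 general oxidase subunits 0 passed the genotype test over days (limma, adjusted), where 0.0374% of all genes did. Between the later days and day 0, 0 of them passed, where 11.8% of all genes did.

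**Figure D4:**
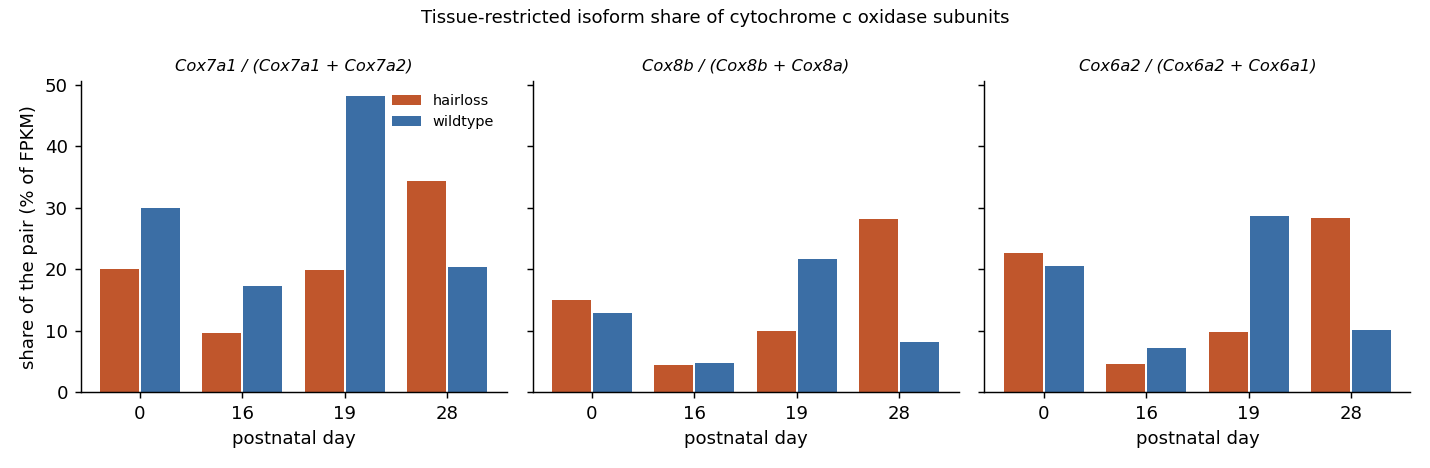
Share of the tissue-restricted isoform in each pair of cytochrome c oxidase subunits, as percent of the pair's summed FPKM, by day, with hairloss left of wildtype and 1 library per bar. The share of Cox7a1 peaks at 48.2% in wildtype skin of day 19, where hairloss skin has 19.9%, and at day 28 hairloss skin has 34.4% and wildtype skin 20.3%.

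By a rule of at least 2-fold on the log2(FPKM + 1) scale with at least 1 FPKM in either library, Ucp1 and Cidea were lower in the hairloss library at day 0, at differences of -4.58 and -1.65, and 0 members were higher. The rule called 1.58% of 16685 genes lower and 1.49% higher at that day. The other 4 members lay between -0.96 and -0.49. At day 16 Ppargc1a (-1.34) and Cox7a1 (-1.48) were lower, where 7.39% of all compared genes were lower and 5.34% higher, and at day 19 Cox7a1 (-2.28) and Cox8b (-1.82) were lower, where 5.76% were lower and 6.53% higher. At day 28 Cidea (1.38) and Dio2 (1.11) were higher, where 5.6% were higher and 6.42% lower. Ucp1 was under 1 FPKM in both libraries after day 0 and was not compared there, nor was Dio2 at day 19. Over the 4 days 0 of the 6 members passed the genotype test in limma, and 0.0374% of 18724 genes passed. At an unadjusted p under 0.05 in limma there was 1 member, and 2511 of the 18724 genes. Between the mean of the later days and day 0, 0 of 6 passed and 2, Ucp1 and Ppargc1a, had an unadjusted p under 0.05. So did 6451 of the 18724 genes. For days 16, 19 and 28 taken singly against day 0, 0 of 6 members passed in limma, where 8%, 2.21% and 0.721% of genes did. At an unadjusted p under 0.05 there were 1, 2 and 2 members, and 6260, 4855 and 4661 of the 18724 genes. Calls without adjustment were common among all genes, so these counts do not set the members apart.

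Other genes of brown adipocytes were closer between the genotypes at day 0 than Ucp1. Of 16 measured companions, genes that brown fat uses beside Ucp1, 12 could be compared and 0 of these differed by 2-fold between the genotypes, with a median of -0.15 against -0.01 over all genes. The rule called few genes of any kind at that day, 1.58% lower and 1.49% higher, so this count does not set the companions apart. Kcnk3, a potassium channel of brown adipocytes, stood at 2.49 FPKM in hairloss skin and 1.72 FPKM in wildtype skin, and Cpt1b, the muscle and brown fat importer of fatty acids into mitochondria, at 11.3 and 14.6 FPKM. The lowest ratios to wildtype were those of weakly detected genes: Slc27a2, a fatty acid importer, stood at 0.0939 and 0.872 FPKM, and Otop1, a proton channel, at 0.0945 and 0.526 FPKM, both under the 1 FPKM needed for the comparison. The wildtype level was 9.29 times the hairloss level for Slc27a2 and 5.56 times for Otop1. Elovl6, a fatty acid elongase, stood at 6.88 and 11.7 FPKM and Pdk4, a brake on glucose use, at 8.47 and 11.3 FPKM.

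Regulators of the brown fat fate differed little between the day 0 libraries in most cases. Prdm16, which holds precursors in the brown fate, stood at 2.23 FPKM in hairloss skin and 1.27 FPKM in wildtype skin, and Ebf2, an early marker of brown precursors, at 2.77 and 2.84 FPKM. Zic1, which marks the embryonic source of back brown fat and dermis, stood at 6.24 and 7.88 FPKM, and Lhx8 at 0.756 and 0.942 FPKM. Of 16 regulators compared, Irf4 (13.9 and 4.02 FPKM) and Zbtb16 (34.1 and 13.0 FPKM) passed the 2-fold rule upwards and 0 downwards. Over all compared genes 1.49% were higher and 1.58% lower, and the list's median was 0.16. The summed level of 7 defining brown markers other than the members was 25.9 FPKM in hairloss skin and 29.8 FPKM in wildtype skin at day 0, and all 7 were above 0 in both. Cpt1b and Zic1, which muscle and dermis also use, make up most of this sum, and it does not show the lower level of Otop1 in the hairloss library. After day 0 this sum was 9.46, 11.6 and 18.99 FPKM in the hairloss libraries of days 16, 19 and 28, and 9.36, 27.9 and 8.004 FPKM in wildtype skin, where Lhx8 was listed at 0 at day 28. Between the later days and day 0, 11.8% of all 18724 genes tested passed in limma, 5.11% higher and 6.72% lower. Of 12 companions tested, Kcnk3 fell (-1.18 ± 0.16 SE, limma adjusted p = 0.0232) and Pank1 and Elovl6 rose. Of 18 regulators, called at close to the share of all genes, Cebpb rose (1.36 ± 0.26 SE, limma adjusted p = 0.0366) and Ppargc1b fell. All of these kept their sign with any 1 library left out, and 0 of them passed without either library of day 0 or of day 16. Cebpb and Kcnk3 also failed without the wildtype library of day 28, Elovl6 and Pank1 without that of day 19.

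Fat, muscle and keratinocyte markers were all above 0 in both day 0 libraries, and in none of these lists was a gene 2-fold lower in the hairloss library. Over all 16685 genes compared at day 0 only 1.58% were lower and 1.49% higher, so counts of 0 do not set these lists apart. The summed level of 5 keratinocyte markers was 8114 FPKM in hairloss skin and 5293 FPKM in wildtype skin. Of 18 pan and white adipocyte genes compared, 0 differed by 2-fold, with a median of 0.11 and a summed level of the list of 2489 FPKM in hairloss skin and 2066 FPKM in wildtype skin. Adipoq, the adipocyte hormone adiponectin, stood at 180 and 160 FPKM, Plin1, the coat protein of fat droplets, at 52.9 and 42.5 FPKM, Retn, resistin, at 59.1 and 54.8 FPKM, and Lep, leptin, at 0.562 and 0.882 FPKM. Of 21 adult muscle genes Myh2 alone was 2-fold higher (38.5 and 9.34 FPKM), with a median of 0.33. Acta1, the actin of skeletal muscle, stood at 3146 and 2417 FPKM and the perinatal myosin gene Myh8 at 870 and 684 FPKM. The part of fat attached to the sample in the levels of Ucp1 and Cidea was not tested. The summed level of 7 white adipocyte markers was 1400 FPKM in hairloss skin and 1131 FPKM in wildtype skin of day 0.

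**Figure D5:**
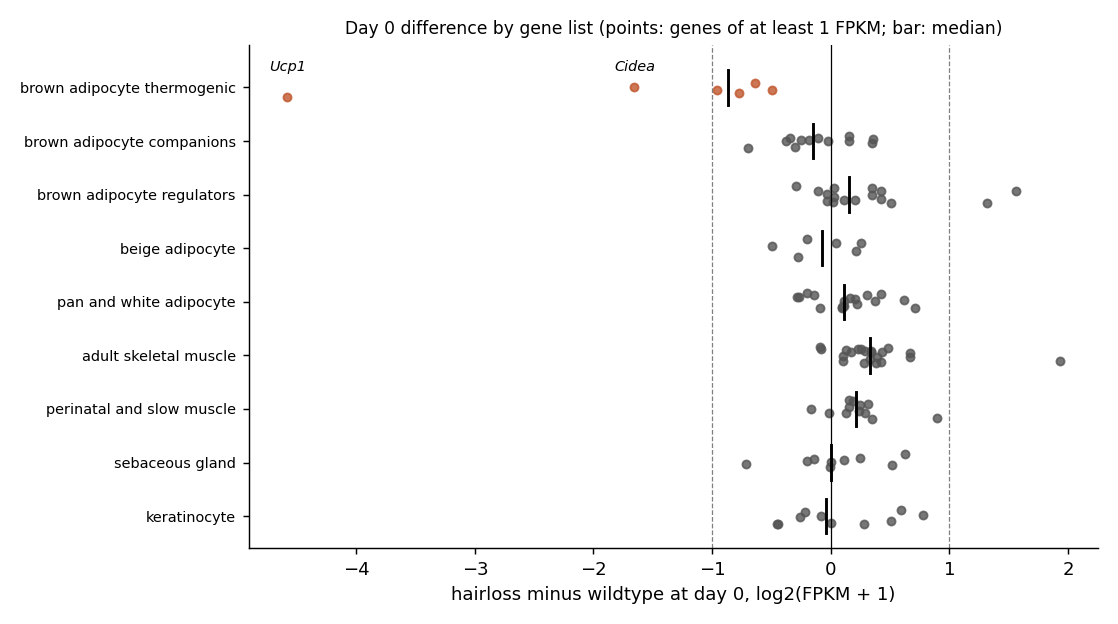
Hairloss minus wildtype difference at day 0 on the log2(FPKM + 1) scale for genes of at least 1 FPKM in either library, by gene list, with a bar at each list's median and dashed lines at 2-fold. Ucp1 (-4.58) and Cidea (-1.65) stand to the left of every gene of the other 8 lists shown, whose medians lie between -0.15 and 0.33.

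The genes named as most like each member were found by Pearson correlation on log2(FPKM + 1) over the 8 libraries among 6505 protein-coding genes. For Ucp1 they were Ctsj, Emilin3, Yy2, Arxes1 and Glb1l, from 0.97 to 0.93. Without the wildtype library of day 0 the correlation of Glb1l was 0.39 and those of the other 4 lay at 0.87 or above. Ctsj, a cathepsin gene, stood at 1.02 FPKM in hairloss skin and 2.32 FPKM in wildtype skin of day 0 and was listed at 0 in the other 6 libraries. Emilin3, a matrix protein, stood at 2.89 and 5.19 FPKM at day 0 and under 1 FPKM afterwards. For Cidea they were Gm14403, Tmem45b, Hacd2, Cybb and H2-M3 (0.96 to 0.88), and Tmem45b, highest of these by Spearman at 0.95, stood at 37.0 FPKM in hairloss skin and 6.52 FPKM in wildtype skin of day 28. For Dio2 they were Apln, Pitx3, Atp6v1b1, Gpat3 and Chst2 (0.95 to 0.91), and for Ppargc1a they were Klhdc1, Rflna, Gm5129, Ghrl and Chd8 (0.98 to 0.93). For Cox7a1 they were Pik3c2g, Dlg2, Skint6, 9330159F19Rik and Rcan2 (0.97 to 0.94). For Cox8b they were Plpp7, Tmod4, Jph2, Phka1 and Coq8a (0.97 to 0.96), of which Tmod4 and Jph2 encode proteins of muscle fibres. These are the highest of 6505 correlations per member over 8 points that share days and genotypes, and they are given as a description.

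The other uncoupling proteins had their own patterns. Ucp2, found in many tissues, stood at 68.6, 291, 347 and 124 FPKM in hairloss skin (days 0, 16, 19 and 28), and at 79.6, 323, 137 and 216 FPKM in wildtype skin. Ucp3, of muscle and brown fat, stood at 2.25, 1.71, 2.68 and 3.54 FPKM in hairloss skin and at 1.92, 1.74, 4.64 and 1.72 FPKM in wildtype skin. Ucp1 made up 4.38% of the summed FPKM of the 3 genes in hairloss skin and 55.3% in wildtype skin at day 0, and at most 0.07% in any later library.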

How the data were processed

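Per the labels' protocols, skin RNA came from RNeasy columns and went into TruSeq libraries. The submitters' processing notes list cutadapt, Cuffdiff and mm10 with no version; no aligner or annotation is named in the sources used here. For each library the authors deposited 1 value per Ensembl gene, under a header with no unit, read here as FPKM since Cuffdiff is listed and the values behave as such. Median ratios between libraries over 11598 protein-coding genes above 1 FPKM in every library, keratins and keratin-associated proteins left out, lay between 0.9882 and 1.0083 of their common level. Depth was estimated as the number of fragments at which the most genes with a single transcript of over 1000 bases carry the value of 1 fragment. It covers counting error only, and an exact 0 can be a failed estimate.

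The scale was log2(FPKM + 1), on which low genes show less than their true fold. With 1 library per genotype and day, differences at a day were described with a 2-fold rule and at least 1 FPKM in either library. Genotype over days, and later days minus day 0, were tested with limma 3.58.1 in R 4.3.3 (moderated with a mean-variance trend and robustly, two-sided, Benjamini-Hochberg, threshold 0.05) in a fit with genotype and day as terms, 3 residual degrees of freedom, over 18724 genes that reached 1 FPKM somewhere. Each SE is the moderated one of the limma fit, drawn toward the spread of other genes, and is not the spread over the days alone. Other steps used Python 3.11.15, pandas 2.3.3, numpy 2.4.6 and scipy 1.17.1. Alternatives changed the pseudocount, filter, scaling, gene set, moderation, blocks and libraries used.

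Named were the 6 members and their family counterparts, up to 4 genes a list with the largest day 0 difference, set marker genes, and for each member the 5 most correlated protein-coding genes of at least 1 FPKM in at least 2 libraries. Genes outside this rule that are named beside a count of calls were chosen after their values were seen. The members and the 19 gene lists were chosen with earlier results of these data known. Of the listed genes, Gyk had no row and Atp5o had 2, of which the one with the higher mean was used. Gene coordinates are from GENCODE M21, on the same build. No sequence is printed for Cidea or Ppargc1a.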

Additional observations from a re-analysis of the deposited data

Results flagged for a closer look

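In hairloss skin, Cidea was lower by over 2-fold at day 0 and higher by over 2-fold at day 28, with differences of -1.65 and 1.38 on the log2(FPKM + 1) scale. It is listed because the 2 days go opposite ways. With 1 library per genotype and day, the difference between the days was not tested.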

How the results depend on the processing

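All 6 members kept their lower level in hairloss skin at day 0 under all 6 alternatives, with Ucp1 between -4.91 and -3.68. Under these the median over all compared genes lay between -0.06 and 0.01, and the share of genes that were lower was not counted. With a pseudocount of 5, 1 member instead of 2 was lower at day 16 (Ppargc1a was not, at -0.64) and 1 instead of 2 was higher at day 28 (Dio2 was not, at 0.42). Differences that reached 2-fold only under an alternative were those of Dio2 at day 0 (-1.04) and Ppargc1a at day 19 (-1.07) with a pseudocount of 0.1, and of Cox7a1 at day 0 (-1.01) scaled to the sum over coding genes. With a pseudocount of 0.1, Ucp1 also passed for day 16 minus day 0 (limma adjusted p = 0.0415, against 0.0415 to 0.20 over its alternatives). Counts over all genes moved with the pseudocount. With 0.1, day 0 had 383 higher and 500 lower genes, the lower genes were 2263 at day 16 and 1554 at day 19, and the higher genes 1424 at day 28. With 5, the higher genes numbered 102, 371, 533 and 401 over the 4 days in turn, and the lower genes 111, 527, 370 and 567. With protein-coding genes alone they were 65 and 64 at day 0 and 667 lower at day 16. Genes passing the genotype test over days numbered 3 with a pseudocount of 5, 2 without a filter on low values and 0 in limma with protein-coding genes alone (2511 of all genes had an unadjusted p under 0.05 in the fit of the report), and 1 to 5 when a day was left out. Without the day block, 8 passed, against 7 with it. Genes passing between later days and day 0 numbered 25 to 1864 when a library was left out, against 2216 with all. They were 25, 105 and 1329 without the hairloss library of day 0, 16 or 28, and 38, 148 and 702 without the wildtype library of day 0, 16 or 28. Without a filter, 456 passed for day 16 minus day 0 and 208 for day 19 minus day 0, and with protein-coding genes alone 768 passed for day 19 minus day 0. The cause of these changes was not tested. Scaled to the sum over coding genes, the median difference of all genes was -0.14 at day 19 and 0.18 at day 28. No paired analysis was possible because each group holds 1 library, beyond the day block above. Limits are 1 library per genotype and day, sex markers that differ with genotype at 3 days, and unknown body site.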

Other observations

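Mitochondrial genes did not differ one way between the genotypes. Of 11 general cytochrome c oxidase subunits 9 stood lower in the hairloss library at all 4 days and Cox4i1 stood higher at all 4. Of 22 other genes of the respiratory chain Atp5b stood lower and 10 stood higher at all 4. Scaled by median ratios these counts were 9 and 1, and 1 and 9. Scaled to the sum over coding genes they were 7 and 1, and 1 and 4. Both scalings were chosen for this count after seeing the data. Ndufs3, 1 of the 22, was listed at 0 in both libraries at days 0, 16 and 28, so it could not count on either side. The share of all genes on the same side at all 4 days was not counted, so these counts do not set the lists apart. In limma 0 genes of either list passed over the days, and 2511 of all 18724 genes had an unadjusted p under 0.05. Atp5b, a subunit of ATP synthase, stood at 504, 497, 496 and 522 FPKM in hairloss skin (days 0, 16, 19 and 28), and at 987, 851, 853 and 981 FPKM in wildtype skin, a mean difference of -0.86 ± 0.14 (moderated limma SE) on the log2(FPKM + 1) scale. This SE and the next ones are drawn toward the spread of other genes and do not measure the spread over the 4 days alone. Cox5b stood at 69.9, 91.2, 82.9 and 67.8 FPKM in hairloss skin and at 123, 158, 175 and 195 FPKM in wildtype skin, a mean difference of -1.04 ± 0.16 (SE). Atp5c1, another subunit of ATP synthase, stood at 173, 153, 148 and 191 FPKM in hairloss skin and at 134, 127, 119 and 155 FPKM in wildtype skin, a mean difference of 0.31 ± 0.11 (SE). These genes were singled out after their values were seen, and none passed after adjustment over all genes (limma adjusted p = 0.304, 0.304 and 0.357). Among genes of other heat-making cycles, Sln, the regulator of the muscle calcium pump, stood at 66.5 FPKM in hairloss skin and 47.9 FPKM in wildtype skin at day 0 and at 0.860 to 10.9 FPKM afterwards. Adrb3, the adrenergic receptor of fat cells, stood at 0.311 FPKM in hairloss skin and 0.371 FPKM in wildtype skin at day 0 and at 0.727 to 6.18 FPKM afterwards.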
